A study of Mus musculus with 70 samples.

Results

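The motile cilia genes were 50 of the 34677 genes in the expression table. They were chosen by symbol alone, as every gene named Dnah, Dnai, Cfap or Rsph followed by a number, plus Foxj1. No expression value entered the choice of single members, but the set itself was chosen with earlier results of these data known. The set held 15 Dnah genes (the heavy chains of axonemal dynein), 26 Cfap genes (cilia and flagella associated proteins), 8 Rsph genes (radial spoke heads) and Foxj1. No Dnai symbol occurred, because the dynein intermediate chain genes carry older symbols in the table, so the intermediate chains were not members.

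A motile cilium is built on a microtubule axoneme. Outer and inner dynein arms slide neighbouring microtubule doublets past each other, and radial spokes and a central apparatus time the stroke. In the adult brain, beating cilia are carried mainly by the multiciliated ependymal cells that line the ventricles, and the choroid plexus epithelium also bears cilia. Foxj1 is the transcription factor known for switching on the motile cilia programme. Neurons and astrocytes carry a primary cilium, which lacks dynein arms and does not beat.

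Expression was measured by mRNA sequencing in 70 mouse libraries. The adult material was 57 libraries of 18 brain regions from male mice at P56, postnatal day 56. The embryonic material was 9 libraries of 4 regions at E14.5. All mice and embryos were C57BL/6 by the labels, given as the substrain C57BL/6NTac in the methods of the study. Another 4 libraries came from a pair of mouse embryonic stem cell (mESC) lines, B6-1 (clone 1) and B6-2, which is clone 2. Both lines are of C57BL/6 origin. The study asked how genes are distributed over brain regions that control energy balance.

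The 5 adult hypothalamic regions were the arcuate nucleus (ARH), the paraventricular nucleus (PVH), the dorsomedial nucleus (DMH), the ventromedial nucleus (VMH) and the lateral hypothalamic area (LHA). The adult hindbrain regions were the dorsal-vagal complex (DVC), the nucleus of the solitary tract (NTS) and the parabrachial nucleus (PB). The cerebellar regions were the central lobule II (CENT2), the culmen lobules IV-V (CUL4-5), the uvula (UVU), the flocculus (FL) and the cerebellar nuclei (CBN). The other adult regions were the anterior cingulate area (ACA), the frontal pole (FRP), the entorhinal area (ENT), the nucleus accumbens (ACB) and the ventral tegmental area (VTA). The embryonic regions were forebrain (F), midbrain (M), hindbrain (H) and the terminal and peduncular hypothalamus together (THy-PHy). No engineered allele is given for any group and no treatment for the mice. Tissue was taken as round punches of frozen sections, so an adult library pools punches of 3 or 4 mice, apart from 1 ACB library of 1 mouse, and an embryonic library pools 4 embryos. Fewer mice than libraries were used, so libraries of different regions share mice, and the labels do not say which. The fits treat the libraries as independent, and the p-values below measure the spread between these pools. Each mESC line is a single clone, freed of feeder cells before collection. The lines were kept with LIF and inhibitors (CHIR-99021, an inhibitor of the kinase GSK-3, and the MEK inhibitors CI-1040 and PD0325901), and their RNA was extracted with another kit than that of the punches, so medium, kit and cell type cannot be told apart.

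The estimated counts of a library summed to between 13409041 and 20647884 in adult regions, between 9074581 and 22229582 in embryonic regions and between 12985081 and 18501667 in mESC. Summed over 12 markers of choroid plexus, NTS 1 (the library labelled NTS, replicate 1) had 10943 TPM (a level corrected for transcript length and scaled to the same total in each library) against 11.9 to 19.4 TPM in the other 3 NTS libraries. UVU 1 had 2211 TPM against 60.4 and 67.7 TPM, and M 2 had 1927 TPM against 144 TPM. VTA 1 had 39.6% of its TPM in mitochondrial genes against a median of 7.49% over all libraries. These 4 libraries stood apart from the rest of their regions, and counts that move by over 1.5 times without them are given both ways. All 3 CBN libraries (3608 to 13067 TPM) and 3 of the 4 FL libraries (660 to 3146 TPM) also held choroid plexus markers. To a smaller extent so did DVC 1 (302.1 TPM) and DVC 3 (65.7 TPM), against 13.1 TPM in DVC 2. The summed pluripotency markers lay between 1612 and 1707 TPM in the mESC libraries and at most at 5.33 TPM in the brain libraries, and the summed neuron markers at 1017 TPM or more in every brain library.

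Promoter sequence was available for 39 of the 50 members, from RefSeq on GRCm38.p6, as the 250 bases before and 50 bases after the start of the gene. The X-box, the motif read by RFX factors that act on cilia genes, was searched as GTTNCCNNNNNAAC on both strands and lay in 3 of the 39 (Cfap44, Cfap45 and Cfap61). That was 7.69% of the member promoters against 1.56% of 27025 promoters of all genes. The forkhead core TGTTTAC, part of the motif bound by forkhead factors such as Foxj1, lay in 3 member promoters (Cfap20, Cfap43 and Dnah17), also 7.69%, against 4.05% of all. The 120 bases before the start are shown for the members whose motif lies whole within them, with the motif in capitals; they show where the match sits in a cilia gene promoter. The first spans chr16:44394679-44394798 (plus strand), the second chr1:172521010-172521129 (plus strand) and the third chr19:47837362-47837481 (minus strand).
Cfap44: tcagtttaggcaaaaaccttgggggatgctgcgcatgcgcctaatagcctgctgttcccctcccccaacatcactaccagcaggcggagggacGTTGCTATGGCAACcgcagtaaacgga
Cfap45: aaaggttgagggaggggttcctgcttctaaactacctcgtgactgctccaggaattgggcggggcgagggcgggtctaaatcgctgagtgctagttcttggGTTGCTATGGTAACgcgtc
Cfap43: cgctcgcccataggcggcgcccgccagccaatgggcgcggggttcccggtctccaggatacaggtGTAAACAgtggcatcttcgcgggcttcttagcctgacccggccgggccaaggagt
In all 3 the motif as searched reads on the strand opposite to the one printed. A match is a description of letters and not a measured binding site.

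The summed level of the 50 members was highest in ARH, with 757.6 ± 12.7 TPM (SD, n = 3), and in CENT2, with 741.3 ± 281.6 TPM (SD, n = 4). VMH had 705.3 ± 139.7 TPM (SD, n = 2), DMH 575.6 ± 73.3 TPM (SD, n = 4), CBN 455.5 ± 175.1 TPM (SD, n = 3) and PVH 445.9 ± 45.1 TPM (SD, n = 2). The lowest adult region was CUL4-5, with 278.3 ± 12.4 TPM (SD, n = 4), and ARH stood 2.72 times above it. The mESC lines had 157.6 ± 1.55 TPM (B6-2, SD, n = 2) and 140.4 ± 15.5 TPM (B6-1, SD, n = 2). In the order of all 24 groups, every pair of neighbours overlapped in range except CUL4-5 with B6-2 and B6-2 with B6-1. Cfap36 and Cfap20, the most abundant members, vary little between regions, so the median over members of each gene's share is a second measure. This share of the gene's total over groups was 13.7% in CENT2, 8.89% in VMH, 8.85% in ARH, 7.48% in DMH, 5.31% in CBN and 1.14% in CUL4-5. By that measure ARH stood 7.75 times above CUL4-5. Members with a mean of at least 1 TPM numbered 47 in CENT2, 46 in VMH and in DMH, 44 in ARH and 42 in CBN, against 22 in LHA, VTA and CUL4-5 and 18 or 19 in mESC.

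**Figure D1:**
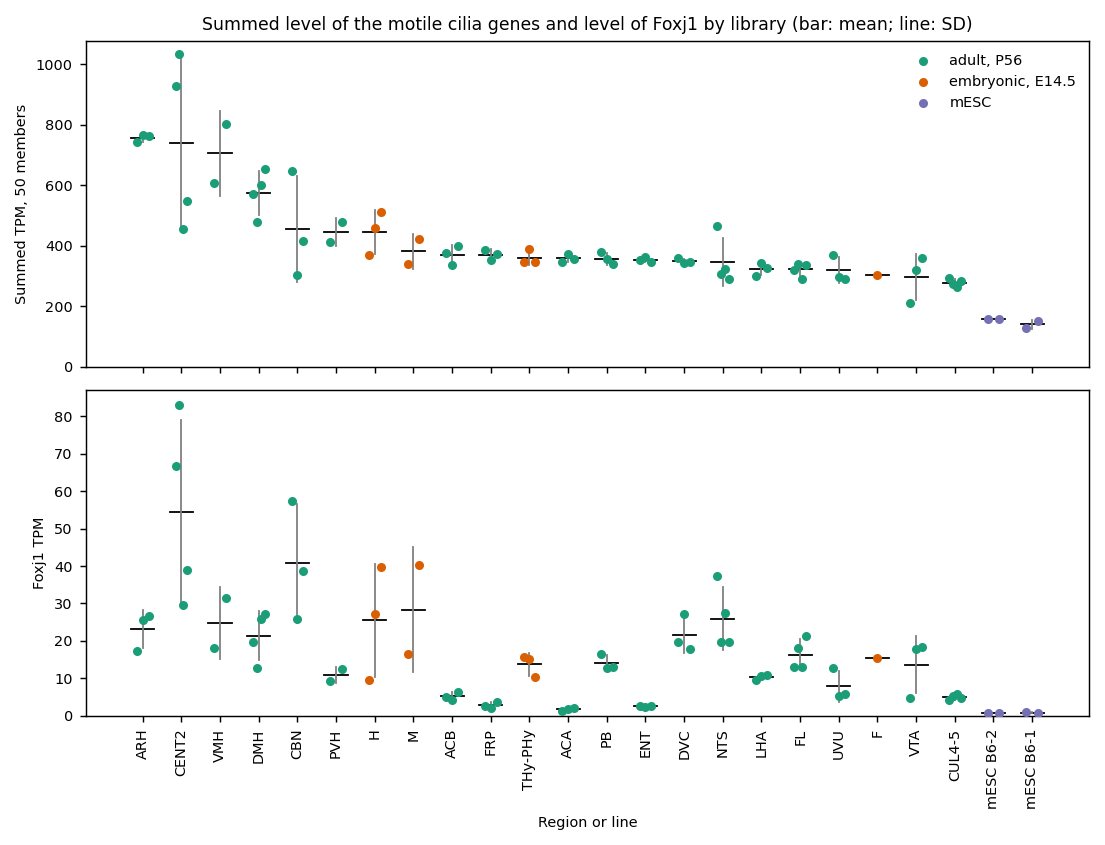
The upper plot gives the summed TPM of the 50 members and the lower plot the TPM of Foxj1 for each library (points), with the group mean (bar) and SD (line), ordered by the mean sum. ARH libraries sit close together between 742.9 and 765.5 TPM, while the 4 CENT2 libraries spread from 456.5 to 1033 TPM.

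CENT2 held the highest adult mean of 29 of the 50 members, ARH of 9, VMH of 6 and PVH of 2, and CBN, CUL4-5, DMH and UVU of 1 each. How all genes split over the regions in this way was not counted, so these numbers describe the members only. ARH, PVH and DVC, grouped in a comparison below as punches beside a ventricle, held 11 of the 50 together, and DVC held none. The labels do not give the distance of a punch from a ventricle, for these regions or for the others. The 4 CENT2 libraries differed widely: Foxj1 had 66.6 and 82.8 TPM in CENT2 1 and 2 but 29.5 and 39.0 TPM in CENT2 3 and 4. The sum of 12 ependymal markers moved with it, with 1234 and 1378 TPM in the first pair and 437.0 and 617.1 TPM in the second. Their part in the result was not tested. In bulk tissue, fewer cells of a type and less RNA per cell cannot be told apart.

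**Figure D2:**
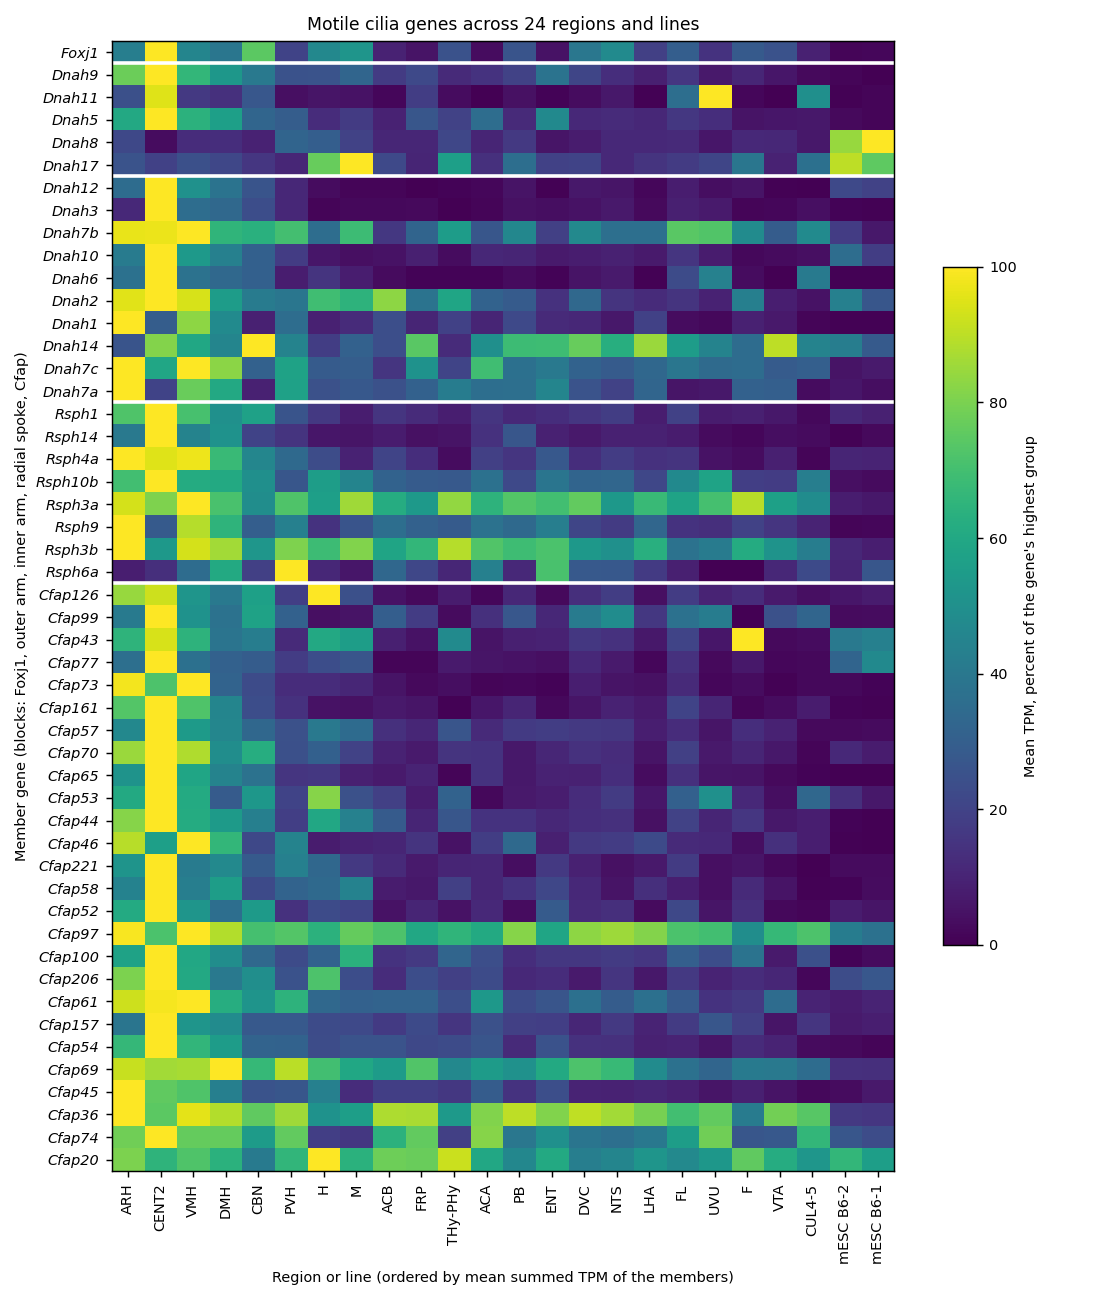
Each square gives the mean TPM of a member (rows, in blocks by role) in a region or line (columns, ordered by mean summed TPM), as a percent of that gene's highest group. Most rows are brightest in CENT2, ARH, VMH and DMH, whereas Cfap36, Cfap20, Cfap97 and Rsph3a are bright across the adult regions.

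Each adult region was compared with the mean of the other 21 brain regions in one edgeR fit over 19980 genes, of which 49 were members; Rsph6a failed the filter on low counts. A gene was called at a Benjamini-Hochberg adjusted p under 0.05 over all genes and an absolute log2 fold change above 1. Of 882 member and region pairs, 194 were called higher (22.0%, against 8.23% of all gene and region pairs) and 121 lower (13.7%, against 4.42%). CENT2 had 38 members higher (9.40% of all genes were), VMH 36 (7.30%), ARH 35 (9.63%), DMH 32 (7.43%) and CBN 27 (10.1%), together 168 of the 194. Cell type markers moved with all 5. Of the 12 ependymal markers, 12 were higher in CENT2, 11 in VMH, 10 in ARH, 9 in DMH and 11 in CBN. All 12 choroid plexus markers were higher in CBN, with a median log2 fold change of 5.07, 8 of 10 tanycyte markers (of the ependymoglial cells of the third ventricle floor) in ARH, and 4 of 6 astrocyte markers in CENT2. Such markers were also higher in regions with few members higher. Of the choroid plexus markers 11 of 12 were higher in FL and in NTS, and of the astrocyte markers 4 of 6 in CUL4-5 and in UVU. In FL 6 of 12 ependymal markers were higher, and in ENT 5 of 10 tanycyte markers. Their part in the member counts was not tested. Without VMH 2 the VMH count fell from 36 to 16, and without CBN 1 the CBN count fell from 27 to 13. With limma on log2(TPM + 0.5) the CBN count was 8. In PVH 5 members were higher (5.70% of all genes), and 2 without PVH 2 but 10 without the 4 libraries that stood apart. No member was lower in VMH (2.76% of all genes), ARH (2.84%), DMH (2.11%), CBN (3.00%) or PVH (1.78%), and 1 was lower in CENT2 (6.37%). The remaining 12 regions had between 0 and 5 members higher: 5 in FL (8.94%), 4 in UVU (8.02%), 2 in CUL4-5 (8.88%), ENT (8.90%), NTS (8.22%) and ACA (10.1%), 1 in ACB (8.17%), FRP (9.19%), PB (6.53%) and DVC (7.05%), and 0 in LHA (5.68%) and VTA (8.97%). Without the 4 libraries that stood apart, FL had 9 members higher in place of 5 and ENT 4 higher in place of 2. In the same setting NTS had 7 lower in place of 2 and UVU 24 lower in place of 15.

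Members were lower mainly in CUL4-5, with 28 of 49 (9.50% of all genes were). VTA had 17 lower (4.04%), UVU 15 (8.30%), LHA 14 (2.35%) and ACB and ENT 11 each (4.89% and 5.81%). ACA and FRP had 9 each (7.91% and 4.98%), FL 3 (4.70%), NTS 2 (3.35%), PB 1 (2.34%) and DVC 0 (2.56%). These smaller counts moved with single libraries. The VTA count became 7 without VTA 2 and 10 without VTA 3, but 26 with limma on log2(TPM + 0.1), and the LHA count became 6 without LHA 1 or without LHA 3. The UVU count became 27 without UVU 1, 9 without UVU 2 and 7 without UVU 3. The ACB count became 5 without ACB 1 and 4 without ACB 2, and the ENT count became 7 without ENT 3. The PB count became 5 without PB 1, 0 without PB 2 or without PB 3, and 6 with limma on log2(TPM + 0.1). In all, 41 members were higher in at least 1 region, and the 8 that were higher in none were Cfap20, Cfap36, Cfap69, Cfap97, Dnah17, Dnah7b, Rsph3a and Rsph3b.

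Foxj1 (chr11:116330704-116335399, minus strand) had 66.6, 82.8, 29.5 and 39.0 TPM in CENT2, 57.4, 25.9 and 38.7 TPM in CBN and 37.2, 19.7, 27.4 and 19.6 TPM in NTS. In the cortex it had 1.31, 1.76 and 2.14 TPM in ACA, 2.62, 2.49 and 2.77 TPM in ENT and 2.63, 2.06 and 3.82 TPM in FRP. All CENT2, CBN and NTS libraries lay above all cortical ones. Against the other brain regions Foxj1 was higher in CENT2 (log2 fold change 2.05 ± 0.18 SE, edgeR adjusted p = 1.57e-14), CBN (1.83 ± 0.20, edgeR adjusted p = 7.80e-11) and NTS (1.17 ± 0.19, edgeR adjusted p = 1.12e-06). Without NTS 1, the library rich in choroid plexus markers, the NTS log2 fold change was 0.96 and missed the fold limit (edgeR adjusted p = 3.27e-04). Foxj1 was lower in ACA (-2.91 ± 0.36, edgeR adjusted p = 6.81e-10), ENT (-2.23 ± 0.33), FRP (-2.22 ± 0.32), CUL4-5 (-1.56 ± 0.26) and ACB (-1.33 ± 0.29). In ARH Foxj1 had 17.4, 25.6 and 26.7 TPM, a log2 fold change of 0.79 ± 0.23 that did not pass the fold limit, although 35 other members were higher there.

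Among the outer arm heavy chains, Dnah9 had 14.97, 16.3, 3.98 and 7.69 TPM in CENT2, 8.01, 9.09 and 7.88 TPM in ARH and 0.362, 0.108, 0.250 and 0.289 TPM in CUL4-5. It was higher in CENT2 (2.52 ± 0.27, edgeR adjusted p = 2.47e-11) and in ARH (2.13 ± 0.32, edgeR adjusted p = 1.84e-07), and lower in CUL4-5 (-3.64 ± 0.55, edgeR adjusted p = 1.56e-07). Dnah5, which like Dnah9 is an outer arm motor chain, had 4.63, 5.09, 1.18 and 2.33 TPM in CENT2 and 0.131 to 0.248 TPM in CUL4-5. Dnah5 was also higher in ENT, at 1.72, 1.58 and 1.42 TPM (1.47 ± 0.28, edgeR adjusted p = 1.88e-05), while Foxj1 was lower there. Dnah17 and Dnah8, heavy chains best known from sperm, stayed low. Dnah17 did not pass 0.868 TPM in any adult library and was higher in no adult region, and Dnah8 was lower in CENT2 (-1.96 ± 0.32, edgeR adjusted p = 6.08e-07), at 0.0306 to 0.0416 TPM.

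Dnah11 (chr12:117877982-118199043, minus strand), an outer arm heavy chain, and Dnah6 (chr6:73017606-73221651, minus strand), an inner arm heavy chain, departed from the other members in the cerebellum. Dnah11 had 13.6, 15.2 and 18.02 TPM in UVU, 9.11, 7.55, 5.78 and 8.66 TPM in CUL4-5 and 8.08, 5.56, 3.93 and 4.96 TPM in FL, against 3.37, 3.30 and 4.83 TPM in ARH. All UVU and CUL4-5 libraries lay above all ARH libraries. Dnah11 was higher in UVU (4.14 ± 0.31, edgeR adjusted p = 2.04e-16), CUL4-5 (3.09 ± 0.31, edgeR adjusted p = 2.47e-12) and FL (2.59 ± 0.33, edgeR adjusted p = 2.02e-09). Dnah6 had 6.38, 4.27 and 3.97 TPM in UVU and 4.62, 4.30, 5.07 and 4.27 TPM in CUL4-5. It too was higher in UVU (2.34 ± 0.42, edgeR adjusted p = 6.15e-06), CUL4-5 (2.00 ± 0.39, edgeR adjusted p = 1.62e-05) and FL (1.79 ± 0.39, edgeR adjusted p = 1.43e-04). Both were the only members called higher in CUL4-5, where 28 were lower. The protein-coding transcript of Dnah11 held a minor share of its TPM in every adult region, from 10.7% in ENT to 40.6% in VTA, with 25.1% in CUL4-5, 24.2% in UVU and 27.1% in ARH. For Dnah6 the protein-coding transcripts made up 42% in CUL4-5 and 57.1% in UVU, against 94.6% in CENT2 and 98.4% in ARH, so much of its level in these lobules lay in transcripts annotated as non-coding.

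**Figure D3:**
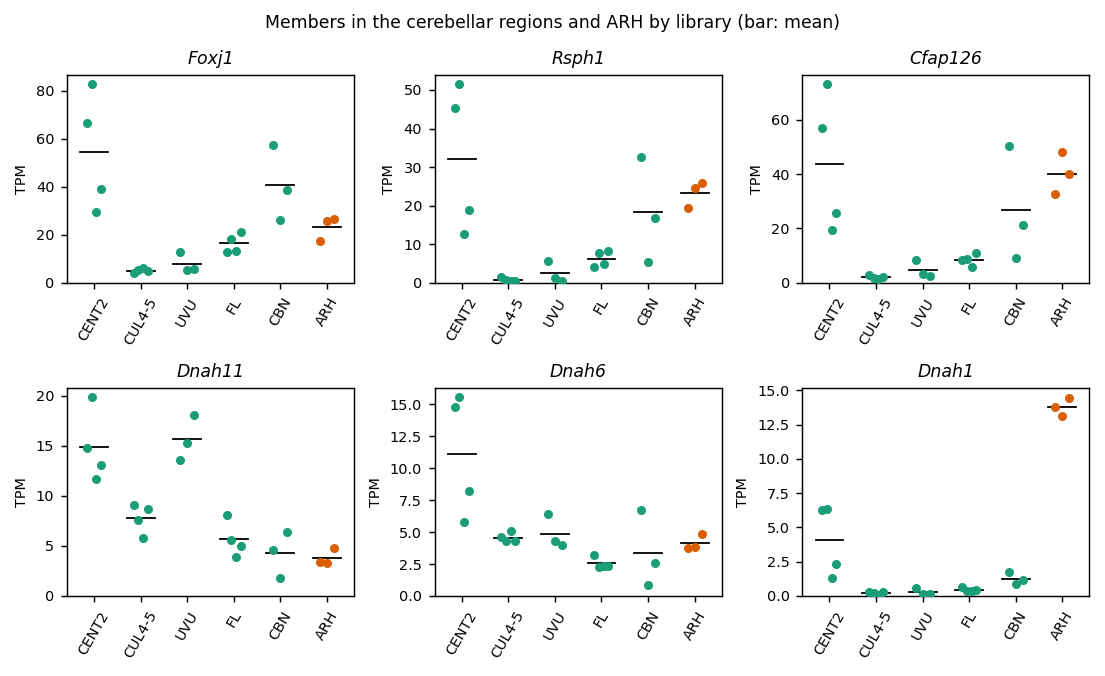
TPM of 6 members in each library (points; bar, mean) of the 5 cerebellar regions and ARH, each plot on its own axis from 0. Foxj1, Rsph1 and Cfap126 are low in all CUL4-5 libraries, Dnah11 and Dnah6 are not, and Dnah1 is highest in ARH.

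Among the inner arm heavy chains, Dnah1 was highest in ARH, with 13.8, 13.2 and 14.47 TPM, and had 9.83 and 13.1 TPM in VMH. In CENT2 it had 6.26, 6.31, 1.29 and 2.36 TPM. It was higher in ARH (2.94 ± 0.17, edgeR adjusted p = 1.55e-20) and lower in CUL4-5 (-3.47 ± 0.31, edgeR adjusted p = 7.44e-14), UVU (-2.98 ± 0.34, edgeR adjusted p = 2.23e-10) and FL (-2.19 ± 0.27, edgeR adjusted p = 9.97e-10). Dnah3 (chr7:119922671-120095280, minus strand) was concentrated in CENT2, with 8.97, 7.74, 1.94 and 3.38 TPM, a mean of 5.51 TPM and 2.79 times that of the next group, VMH. Dnah6 and Cfap77 were the other members at least 2-fold above the next group outside ARH, PVH and DVC, with CENT2 means of 11.1 TPM (2.28 times UVU) and 8.18 TPM (2.12 times mESC B6-1). Dnah12 had the largest fold change of all members in CENT2 (4.90 ± 0.36, edgeR adjusted p = 7.83e-17), at 4.51, 4.91, 1.29 and 2.57 TPM. Dnah7a, Dnah7b and Dnah7c are paralogs whose reads may have been split between them, though their likeness was not measured. In addition 1.97% of Dnah7a TPM lay in its protein-coding transcript, so their single values are uncertain.

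Of the radial spoke members, Rsph1 had 19.3, 24.5 and 25.8 TPM in ARH, 45.3, 51.5, 12.5 and 18.8 TPM in CENT2 and 0.338 to 1.38 TPM in CUL4-5. Rsph4a had 12.08, 12.01 and 12.87 TPM in ARH, 16.7, 18.1, 5.29 and 6.78 TPM in CENT2 and 0.00 to 0.360 TPM in CUL4-5. For both spoke head genes all ARH and CENT2 libraries lay above all CUL4-5 libraries, and both were higher in CENT2, VMH, ARH, DMH and CBN. The Rsph4a call in CBN was lost without CBN 1 (0.76, edgeR adjusted p = 0.215). Rsph9, another spoke head gene, followed the hypothalamus instead: it had 62.6, 58.4 and 64.4 TPM in ARH, 46.8 and 62.9 TPM in VMH, and 27.0, 24.3, 5.70 and 13.1 TPM in CENT2. It was higher in ARH (1.77 ± 0.21, edgeR adjusted p = 7.24e-10), VMH and DMH, and its log2 fold change in CENT2 was -0.17 ± 0.23 (edgeR adjusted p = 0.620). Rsph10b had its highest mean in CENT2, at 13.2 TPM, and Rsph14 likewise, at 4.90 TPM. Rsph3a and Rsph3b, a pair of paralogs, were even, with a highest adult mean 2.06 and 2.65 times the lowest, and Rsph6a, known from sperm flagella, did not pass a mean of 0.634 TPM in any group.

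The 10 members with the highest mean over adult libraries were Cfap36 (104.5 TPM), Cfap20 (61.5 TPM), Rsph3b (34.5 TPM), Rsph9 (21.6 TPM), Cfap97 (18.98 TPM), Foxj1 (17.5 TPM), Cfap69 (16.8 TPM), Cfap74 (12.2 TPM), Cfap126 (11.9 TPM) and Rsph1 (9.32 TPM). These differed widely in how even they were. The highest adult region mean was 1.43 times the lowest for Cfap36, 1.70 times for Cfap97 and 1.94 times for Cfap20, but 10.1 times for Rsph9 and 31.4 times for Foxj1. Cfap126, a gene under Foxj1 control also known as Flattop, spanned 54.6 times, from 0.801 TPM in ACA to 43.8 TPM in CENT2. It had 32.6, 48.0 and 39.8 TPM in ARH and 56.9, 73.1, 19.5 and 25.6 TPM in CENT2.

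The comparison of ARH, PVH and DVC with the other 15 adult regions asked whether punches beside a ventricle stood out. It cannot isolate that, because the 15 include regions rich in ependymal markers. Against other brain regions, 12 of the 12 ependymal markers were higher in CENT2, 11 in VMH, 11 in CBN and 9 in DMH. In ARH 10 were higher, in PVH 5 and in DVC 2. Taken singly, ARH had 35 members higher, PVH 5 and DVC 1. Averaged over regions on the log scale, 11 of 49 members were higher and none lower, against 3.71% and 1.22% of all genes, with a median member log2 fold change of 0.69 against 0.00 for all genes. The largest were Cfap73 (1.88 ± 0.39, edgeR adjusted p = 9.79e-05), Cfap43 (1.72 ± 0.38), Dnah12 (1.72 ± 0.40) and Dnah1 (1.54 ± 0.14, edgeR adjusted p = 4.80e-13). Cfap221, Cfap77, Cfap126, Dnah7a, Cfap46, Cfap70 and Cfap58 made up the rest, at 1.03 to 1.48. Cfap58, at 1.03, fell to between 0.87 and 1.00 and lost its call without any 1 of 10 libraries (ACA 3, ARH 1, CBN 2, DVC 2, DVC 3, FRP 3, PVH 2, UVU 3, VMH 1 or VTA 1), and Cfap70 lost it without PVH 2 (0.94). Foxj1 had a log2 fold change of 0.67 ± 0.16, under the fold limit. Of the 12 ependymal markers, 6 were higher in the same contrast, Tmem212 by 2.77 ± 0.59 and Fam216b by 2.68 ± 0.52. The member count became 16 without the 4 libraries that stood apart and 4 with limma on log2(TPM + 0.5), on which low members show smaller changes.

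The hypothalamic contrast was much wider. In ARH and PVH against LHA, the hypothalamic region punched away from the third ventricle, 35 of 49 members were higher and none lower, against 2.72% and 2.19% of all genes, and the median log2 fold change was 1.90 for members against 0.02 for all genes. By role, 4 of 5 outer arm chains, 9 of 10 inner arm chains, 3 of 7 radial spoke genes and 19 of 26 Cfap genes were higher. Foxj1 was not called, with 0.52 ± 0.32 (edgeR adjusted p = 0.301): it had 17.4, 25.6 and 26.7 TPM in ARH, 9.40 and 12.4 TPM in PVH and 9.65, 10.5 and 11.0 TPM in LHA. Its PVH and LHA libraries overlapped.

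Dnah6 had the largest change, with 3.74, 3.82 and 4.83 TPM in ARH, 0.638 and 1.17 TPM in PVH and 0.0687, 0.123 and 0.0627 TPM in LHA (4.68 ± 0.93, edgeR adjusted p = 1.75e-04). Dnah11 (3.52 ± 0.79, edgeR adjusted p = 7.78e-04), Dnah12 (3.51 ± 0.91, edgeR adjusted p = 0.00404) and Cfap77 (3.47 ± 0.87, edgeR adjusted p = 0.00267) followed. Dnah11 had 0.425 and 0.836 TPM in PVH and 0.0713 to 0.128 TPM in LHA. For each of these 4 genes every ARH and PVH library lay above every LHA library. Cfap126 had 6.95 and 10.6 TPM in PVH and 1.24 to 2.52 TPM in LHA (2.95 ± 0.56, edgeR adjusted p = 8.81e-05). Cfap65, needed for the sperm flagellum, had 8.98, 9.70 and 10.1 TPM in ARH, 2.28 and 3.48 TPM in PVH and 0.546 to 0.696 TPM in LHA (3.11 ± 0.70, edgeR adjusted p = 8.08e-04). The promoter genes Cfap44 and Cfap45 were higher as well, Cfap44 by 2.80 ± 0.62 and Cfap45 by 2.15 ± 0.44. In every called member ARH exceeded PVH in mean, apart from Dnah8.

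The markers of ependyma moved in the same direction. In ARH and PVH against LHA, 8 of 12 ependymal markers were higher, Tmem212 by 5.17 ± 1.48 and Ccdc153 by 4.57 ± 1.10, and 5 of 10 tanycyte markers were too. None of 12 choroid plexus, 6 astrocyte or 5 neuron markers was higher. The summed ependymal level ran from 331.7 to 409.3 TPM in ARH, 149.0 to 222.2 TPM in PVH and 114.6 to 135.3 TPM in LHA, and the summed tanycyte level from 226.8 to 320.3 TPM in ARH but from 24.3 to 27.7 TPM in PVH and 20.4 to 40.0 TPM in LHA. The ependymal sum is a rough measure. Pltp alone made up 69.2 to 91.3 TPM of it in LHA, and Hdc 47.9 to 96.9 TPM in ARH. In CUL4-5 the sum was 188.2 to 229.5 TPM, of which Pltp made up 149.3 to 178.3 TPM. Tmem212, Fam216b and Sntn were at 0 TPM there. The part of ependymal cells and tanycytes in the member counts was not tested. Genes of the motile axoneme outside the set were higher too: 5 of 6 central apparatus genes, 3 of 4 docking complex genes, 5 of 8 genes of the nexin-dynein regulatory complex and rulers, 2 of 10 tested assembly factors and 2 of 5 tektins. Spag17, a central apparatus gene, was higher by 6.23 ± 1.33 (edgeR adjusted p = 4.70e-04). None of 20 primary cilia genes was called in either direction.

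In DVC against NTS no member was called in either direction, against 0.0601% of all genes higher and 0.01% lower in edgeR. At an unadjusted p under 0.05 there were 2 members, and DESeq2 called 0. The median member log2 fold change was -0.11. Foxj1 had 19.8, 27.3 and 17.8 TPM in DVC and 37.2, 19.7, 27.4 and 19.6 TPM in NTS (-0.32 ± 0.32), and the groups overlapped. NTS 1, with its choroid plexus markers, was the highest NTS library for Foxj1. On the other side DVC 1 also held choroid plexus markers, at 302.1 TPM. Without the 4 libraries that stood apart the count was still 0.

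**Figure D4:**
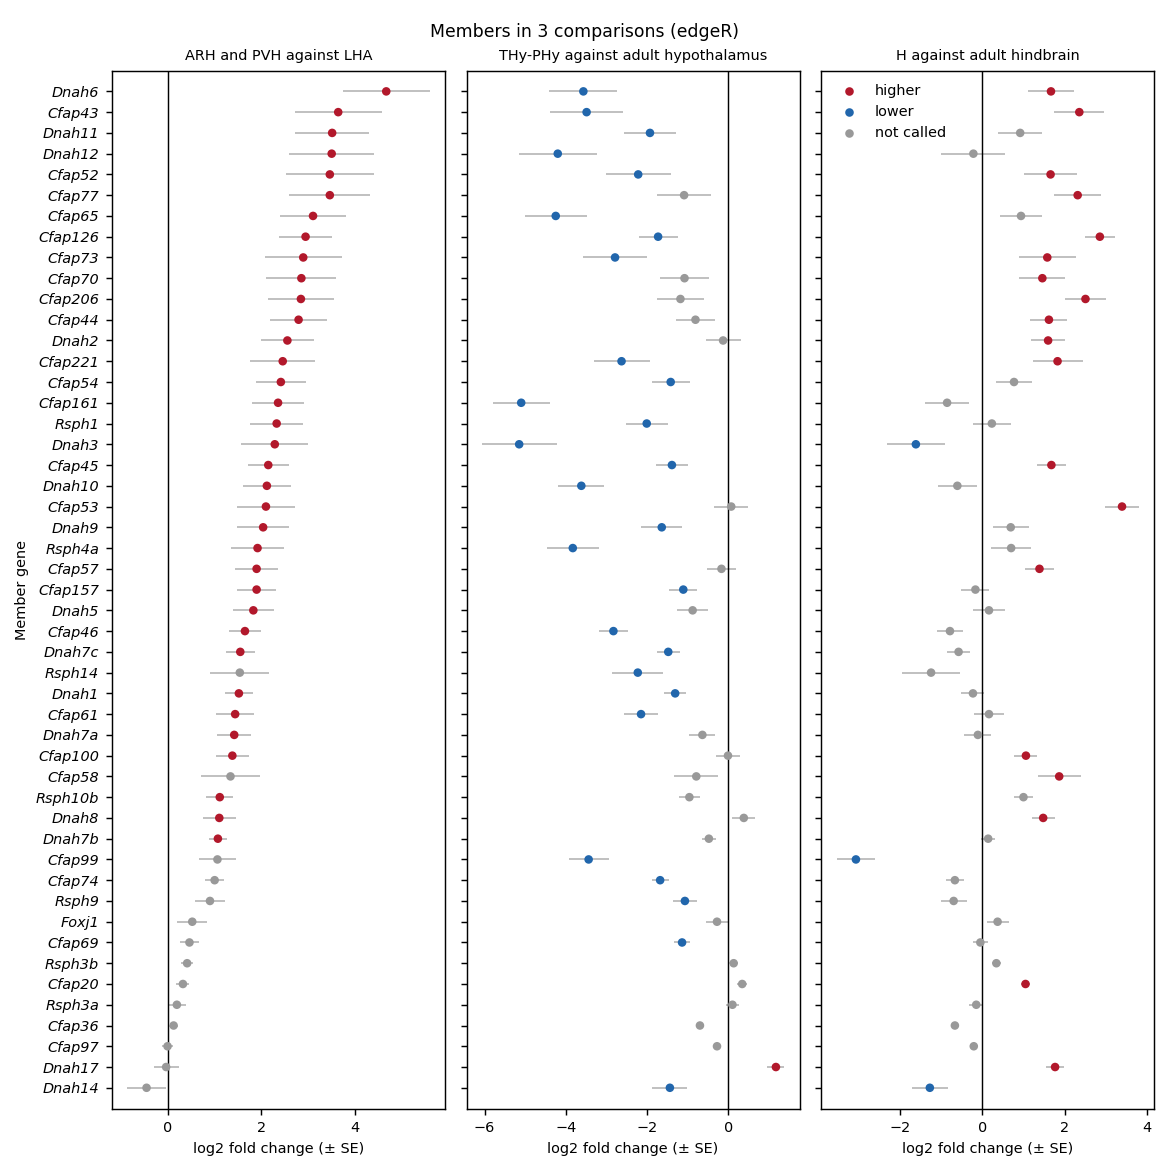
Log2 fold change ± SE from edgeR for the 49 tested members in ARH and PVH against LHA (left), embryonic THy-PHy against adult hypothalamus (middle) and embryonic H against adult hindbrain (right), in the order of the left plot. Red points were called higher, blue points lower and grey points not called: 35 are red on the left, 28 are blue in the middle and 19 are red on the right.

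Embryonic and adult tissue differed in opposite ways in hypothalamus and hindbrain. In THy-PHy against the mean of the 5 adult hypothalamic regions, 28 of 49 members were lower and 1 was higher, against 20% and 18.2% of all genes. Dnah3 had 0.00782 to 0.0385 TPM in THy-PHy (-5.15 ± 0.92, edgeR adjusted p = 2.14e-06). Cfap161 had 0.00, 0.422 and 0.142 TPM in THy-PHy and 16.9, 18.6 and 23.8 TPM in ARH (-5.10 ± 0.70, edgeR adjusted p = 7.59e-09). Rsph4a had 0.188 to 0.677 TPM against 1.46 TPM or more in every adult hypothalamic library (-3.83 ± 0.64, edgeR adjusted p = 7.19e-07). Cfap65 (-4.25 ± 0.76), Dnah12 (-4.20 ± 0.96), Dnah10 (-3.62 ± 0.57), Dnah6 (-3.57 ± 0.84) and Cfap99 (-3.44 ± 0.49) were lower as well, and these cover dynein arms, a spoke head and axonemal proteins. The only member higher was Dnah17, at 0.965, 1.28 and 0.511 TPM (1.17 ± 0.21, edgeR adjusted p = 3.00e-06).

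Foxj1 itself was not called in the hypothalamus: THy-PHy had 15.7, 15.2 and 10.3 TPM, within the adult hypothalamic range, and the log2 fold change was -0.28 ± 0.27 (edgeR adjusted p = 0.389). Of the 12 ependymal markers, 11 were lower in THy-PHy. Of these 12, Sntn was at 0 TPM in all 9 embryonic libraries and Tmem212 in 8 of the 9, at most 0.176 TPM. Fam216b reached at most 0.279 TPM and Ccdc153 at most 1.16 TPM. The other 8 reached between 2.22 TPM (Hdc) and 65.8 TPM (Pltp) in an embryonic library, Dynlrb2 25.1 TPM and Mia 18.6 TPM among them. Cfap43 was called lower (-3.49 ± 0.90), but not all of its transcripts entered its count: those that did had a mean of 0.346 TPM in THy-PHy, whereas the gene table gives 6.37 TPM in THy-PHy and 4.97 TPM in the adult hypothalamus. Its direction in the embryo is therefore uncertain.

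In H against the mean of DVC, NTS and PB, 19 of 49 members were higher and 3 lower, against 23.0% and 21.1% of all genes, so the share higher was 38.8%. Cfap53, a gene known for left-right asymmetry, had 4.77, 5.13 and 4.78 TPM in H and at most 2.70 TPM in any adult hindbrain library (3.40 ± 0.42, edgeR adjusted p = 3.21e-10). Cfap126 had 47.8, 52.7 and 41.8 TPM in H against 2.46 to 21.1 TPM in those regions (2.86 ± 0.37, edgeR adjusted p = 1.71e-09). Cfap206 had 8.72, 7.93 and 7.32 TPM (2.51 ± 0.49, edgeR adjusted p = 9.66e-06). In all of these the H libraries lay above every adult hindbrain library. Of the roles, 15 of 26 Cfap genes, 2 of 5 outer arm chains and 2 of 10 inner arm chains were higher and no spoke gene was. The lower ones were Cfap99 (-3.08 ± 0.47), Dnah3 (-1.62 ± 0.71) and Dnah14 (-1.28 ± 0.44). Dnah3 lost its call without any 1 of 6 libraries (H 1, H 2, H 3, DVC 2, NTS 1 or PB 1), at edgeR adjusted p = 0.0640 to 0.117, and Dnah14 lost it without H 2. H 1 had the lowest total count of all libraries and 22.6% of its TPM in mitochondrial genes, against 11.8% in H 2 and 6.1% in H 3, and it was also the lowest H library for Foxj1. Without H 1 the counts were 19 higher and 2 lower. Foxj1 had 9.63, 27.1 and 39.7 TPM in H, overlapping the adult libraries (0.37 ± 0.27, edgeR adjusted p = 0.220).

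All 9 factors of the multiciliation programme were higher in H, Gmnc by 4.73 ± 0.59 (edgeR adjusted p = 5.63e-10), Cdc20b by 4.56 ± 0.72 and Myb by 2.58 ± 0.31; Gmnc acts at the top of that programme. In THy-PHy 3 of the 9 were higher and 3 lower. Choroid plexus markers moved with H, with 9 of 12 higher and a summed level of 655.8 to 2171 TPM, while of the 12 ependymal markers 3 were higher and 6 lower. In THy-PHy the choroid plexus sum was 21.4 to 41.1 TPM. Of 10 tanycyte markers, 7 were higher and 3 lower in H, and 6 higher and 2 lower in THy-PHy. The part of these cells in the member counts was not tested. The sample overview of the study puts adult, embryonic and mESC samples in separate collection batches, so stage and batch cannot be told apart.

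The difference of the embryonic and adult contrasts between hindbrain and hypothalamus was tested itself. It was called higher in 33 of 49 members and lower in none, against 6.38% and 3.46% of all genes, with a median of 2.04 for members and 0.01 for all genes. Dnah6 differed by 5.25 ± 1.01 (edgeR adjusted p = 8.08e-05), from -3.57 in the hypothalamus to 1.67 in the hindbrain.

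Both mESC lines had the lowest sums, with 25 of 49 members lower and 6 higher than the mean of the 4 embryonic regions, against 29.0% and 26.8% of all genes. Foxj1 had 0.984 and 0.795 TPM in B6-1 and 0.821 and 0.840 TPM in B6-2, against 9.63 TPM or more in every embryonic library (-4.12 ± 0.36, edgeR adjusted p = 4.81e-15). Dnah9 (-5.27 ± 0.74), Cfap44 (-5.06 ± 0.72), Cfap65 (-4.68 ± 1.00) and Cfap54 (-4.30 ± 0.64) had the largest falls. Of the spoke genes Rsph3a, Rsph3b, Rsph9 and Rsph10b were lower. Dnah12 (3.86 ± 0.70, edgeR adjusted p = 2.10e-06), Dnah10 (2.75 ± 0.44) and Dnah8 (2.61 ± 0.27, edgeR adjusted p = 1.08e-12) were higher. Dnah8 had 1.07 and 1.08 TPM in B6-1 and 0.863 and 0.961 TPM in B6-2, above every brain library, and Dnah12 had 0.673, 0.638, 0.463 and 1.00 TPM, above every embryonic library. Cfap77, Dnah14 and Cfap43 were the others called higher, Cfap43 with the limit on its counts given above.

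The likeness of members to Foxj1 was measured over the 57 adult libraries as the Pearson correlation (r) of log2(TPM + 0.5), which share regions and depth. Of the other 49 members, 6 reached 0.7: Cfap126 (0.87), Cfap99 (0.80), Cfap43 (0.74), Dnah12 (0.74), Cfap77 (0.72) and Dnah3 (0.71). The median was 0.52 and 12 members lay below 0.3, among them Rsph9 (0.14), Cfap36 (0.13) and Dnah7a (0.06). Over the 15488 genes with a mean of at least 1 TPM, 2.01% reached 0.7 and the median was 0.10. The summed ependymal markers had r = 0.77 with Foxj1 and 0.75 with the summed members, and 0.87 and 0.86 after region means were removed. By rank (Spearman rho) the values were 0.75 and 0.49. The ependymal list was not screened for genes of the motile cilium itself, and the part of such genes in these values was not tested. The summed primary cilia genes had r = 0.09 with Foxj1 and 0.71 with the summed members, and 0.56 and 0.63 after region means were removed. Their rho with the summed members was 0.61. The summed tanycyte markers had r = -0.50 with Foxj1 and 0.16 with the summed members, and 0.60 and 0.66 after region means were removed. The summed choroid plexus markers had r = 0.52 with Foxj1 and 0.14 with the summed members, and 0.31 and 0.45 after region means were removed. With the summed members, primary cilia genes thus came near the ependymal markers (r = 0.71 against 0.75) and stood above them by rank. After region means were removed they did not (0.63 against 0.86). With Foxj1, the ependymal markers had the highest r of these lists, before and after region means were removed. Single members reached r = 0.7 with the ependymal sum in 24 cases, and the share of all genes that did so was not computed.

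**Figure D5:**
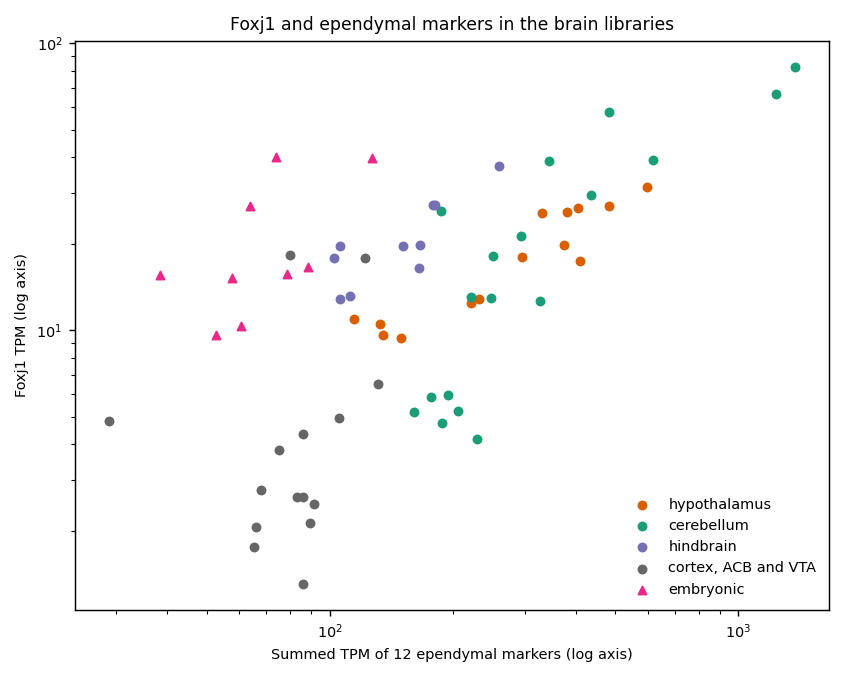
Foxj1 TPM against the summed TPM of 12 ependymal markers in each brain library, on log axes, coloured by brain area. Adult cerebellar CENT2 libraries reach 1378 TPM of ependymal markers and 82.8 TPM of Foxj1, cortical libraries lie at the lower left, and no embryonic library (triangles) passes 127.1 TPM of ependymal markers. In CUL4-5 most of the marker sum of 188.2 to 229.5 TPM is Pltp, at 149.3 to 178.3 TPM.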

How the data were processed

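Strand-specific single-read mRNA libraries were sequenced, and per the submitters' processing notes reads were converted with CASAVA 1.8.2 and quantified with kallisto against GRCm38 transcripts. The authors deposited estimated counts per transcript and TPM per transcript, and TPM per gene as the sum over its transcripts. Of 109282 transcripts, 107987 were matched by identifier to GENCODE vM21, and the unmatched held 0.42% to 0.77% of a library's counts. The transcript counts of a gene were added up and rounded to whole numbers. For 365 genes, 2 of them members (Cfap43 and Cfap44), the matched transcripts gave a TPM that differed from the gene table by more than 1%.

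All 70 libraries entered one edgeR 4.0.16 quasi-likelihood fit (R 4.3.3, TMM factors, filterByExpr, one term per region or line), which tested 19980 genes. Group contrasts average log2 levels over regions. Alternatives were DESeq2 1.42.0, limma 3.58.1 on log2(TPM + 0.5) or log2(TPM + 0.1), median-ratio size factors, no filter, fewer libraries, a replicate block and leaving out each library. In a test on simulated data of ARH and PVH against LHA, with 19700 genes tested, 149 of 197 genes changed by 2 on the log2 scale were recovered, with 1 false call. Descriptions and plots used Python 3.11.15, pandas 2.3.3, numpy 2.4.6 and matplotlib 3.10.9. Promoters were RefSeq GRCm38.p6, and gene coordinates GENCODE vM21 on GRCm38.

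Samples were grouped by their labels. The set, its comparisons and the marker lists were chosen with earlier results of these data known. Members named with values were Foxj1, every Rsph gene, the 10 with the highest adult mean, called members with the largest changes (up to 25 per comparison) and those at least 2-fold above the next group; Dnah5, Dnah8, Dnah9, Dnah11 and Cfap45 in single regions were picked after their values were seen. Depth sets the precision of low members. Protein identity between paralogs was not run.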

Additional observations from a re-analysis of the deposited data

Results flagged for a closer look

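NTS replicate 1 stood far from the other 3 NTS libraries in the summed level of choroid plexus markers, with 10943 TPM against 11.9 to 19.4 TPM. It was the only library flagged in 60 tests of regions with 4 libraries. Chance alone gives about 1 flag in 20 tests, so the number of flags is no more than chance would give. That number does not measure how far this library stood from the others. Regions with fewer libraries, UVU and M among them, were not tested. The same library had the highest summed member level of its region, 464.2 TPM against 289.1 to 324.7 TPM. The part of the choroid plexus signal in that level was not tested.

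The embryonic and adult contrasts differed between hindbrain and hypothalamus in 33 of 49 members, by the test of the difference itself in edgeR, all in the direction of a higher value in hindbrain. The median difference was 2.04 on the log2 scale, against 0.01 over all genes. Foxj1 was not among the 33, with a difference of 0.64 ± 0.38 (edgeR adjusted p = 0.211).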

How the results depend on the processing

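Beside the main counts of members, 9 other settings and leaving out each library in turn were run. With limma on log2(TPM + 0.5), with and without a filter on low TPM, the members higher in ARH, PVH and DVC became 4 and 4 in place of 11, and those higher in THy-PHy 0 and 0 in place of 1. With limma on log2(TPM + 0.1), the members lower in H became 5 in place of 3. The other counts of the 6 comparisons and of the 882 pairs stayed within 1.5 times of the main one under these settings. The ratio of levels by region, ARH over CUL4-5, was 7.752 by the median share in place of 2.722. Leaving out one library gave 9 to 13 higher and 0 to 1 lower in ARH, PVH and DVC (1 without PVH 2), 28 to 37 higher in ARH and PVH against LHA, 0 to 0 in DVC against NTS, 26 to 31 lower and 1 to 1 higher in THy-PHy, 16 to 22 higher and 1 to 3 lower in H (1 without H 2), 23 to 28 lower and 6 to 7 higher in mESC, 174 to 199 pairs higher and 111 to 133 lower, and a ratio of 2.679 to 2.771.

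Some values turned sign with limma on TPM (pseudocounts of 0.1 and 0.5, and 0.5 without the filter). Cfap43 gave 0.85, 0.72 and 0.72 in THy-PHy and -0.54, -0.51 and -0.51 in mESC; its counts miss some transcripts. Dnah7a gave -0.57, -0.54 and -0.54 in CENT2, and Dnah12 -0.05 and -0.05 in FL with a pseudocount of 0.5; the cause was not tested. Of 7209 alternative values of 448 gene results, 6600 kept direction and call, 598 lost the call and 11 reversed. Of 36 counts for single regions, 25 moved by over 1.5 times in at least 1 alternative, in 95 of 438 values.

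The setting without the 4 libraries that stood apart was chosen after seeing the data: it gave, for each adult region against other brain regions, 207 pairs higher and 119 lower, 16 members higher in ARH, PVH and DVC, and 22 higher in H. Over 669 pairs of libraries with the same replicate number, the deviations from group means had a median r of 0.010, against -0.003 with another number. Of 69 libraries, 35 were closest to their own number, and the share that chance would give was not computed. The labels do not tie a replicate number to shared mice, so these values cannot tell whether libraries are paired. With a replicate block the counts were 195 and 120 pairs, 11, 35 and 0 members higher in the adult comparisons, 28 lower in THy-PHy, 20 higher in H and 25 lower in mESC. The fit with fewer libraries could not be run for mESC.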

Other observations

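Among genes outside the set with a mean of at least 1 TPM in adult libraries, the 15 most like Foxj1 over the 57 adult libraries were led by Ttc12 (r = 0.948), a gene needed for dynein arm assembly, Fbxo36 (0.901), Gm45396 (0.901), Ccdc89 (0.878) and Smo (0.878), the transducer of hedgehog signals. Bbox1, Trp63, Spef2, Ankub1, Spa17, Csrp2, Casc1, Bdh2, 1700012B09Rik and Itpkb followed, down to 0.827. Spef2 is a central apparatus gene and Spa17 a sperm flagellum protein. CENT2 had the highest mean for 9 of these 15 genes. The libraries share regions and depth, so these values are descriptions.

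The cell type markers fixed for the embryonic comparisons also moved. All 6 leptomeninges markers were higher in THy-PHy and in H than in the adult regions, with median log2 fold changes of 3.60 and 4.74. Of 6 astrocyte markers, 6 were lower in THy-PHy and 4 in H. Of 5 neural progenitor markers, 4 were higher in THy-PHy and 3 in H. In mESC, all 3 pluripotency markers were higher and all 5 neuron markers lower than in embryonic brain, and 9 of 10 tanycyte markers were lower. Of 20 primary cilia genes, 2 were lower in THy-PHy, 1 was higher and 2 lower in H, and 6 were lower in mESC.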
